A study of Mus musculus with 12 samples.

Results

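Heat shock proteins and J-domain cochaperones were examined in splenic regulatory T cells (Treg) lacking or carrying CD83, before and after a short activation. Members were the non-control probes whose gene name began with Hsp (followed by a, b, d, e, h or 9) or with Dnaj and whose signal stood well above background throughout at least 1 group of 3 arrays. Of 110 probes named in this way for 73 genes, 88 probes for 58 genes passed and were tested, out of 26259 tested probes for 18627 genes in all. The other 22 probes did not pass, and 15 genes had no probe that did, among them Hspa1l, Hspa12a, Hspa12b, Hspb2 and Hspb8. The study measured Treg sorted from the spleens of female C57BL/6 mice on 12 one-colour arrays, 3 in each of 4 groups. The groups were KO at 3 h (CD83cKO, a conditional knockout of Cd83, stimulated for 3 h through CD3 and CD28 by antibody), KO at 0 h (the same genotype, non-activated), WT at 3 h and WT at 0 h (wild type in the same 2 states). KO mice were 10 weeks old, except for replicate 3 at 3 h and replicate 3 at 0 h, labelled 21 weeks, and WT mice were 9 weeks old. The labels do not say whether the 21-week arrays share a mouse. The labels name no Cre driver. The 12 arrays came from 6 mice according to the series text. Some arrays must therefore share a mouse. The labels do not say which, and the p-values treat arrays as independent.

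Hsp70 proteins (the Hspa genes) bind unfolded stretches of other proteins and release them in a cycle driven by ATP. J-domain proteins, encoded by the Dnaj genes, bring clients to Hsp70 and start its ATP hydrolysis, and the large Hsp110 proteins (Hsph1, Hspa4, Hspa4l) exchange its nucleotide. Hsp90 folds kinases and receptors, Hsp60 with Hsp10 folds proteins inside mitochondria, and the small Hspb proteins hold unfolded proteins without ATP. Many of these genes are induced by heat shock factor 1 (HSF1), and those of the endoplasmic reticulum (ER) by the unfolded protein response. T cell activation, which starts growth and secretion, is known to raise several of them.

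Some properties of the arrays touch every result. All 6 KO arrays lay on 1 slide, WT arrays at 0 h on another and WT arrays at 3 h on another, so KO against WT, and 3 h against 0 h in WT, cannot be told apart from the slide, while 3 h against 0 h in KO lay within 1 slide. Cd83 itself was lower in KO at 3 h by a log2 difference of -2.50 ± 0.27 (standard error, SE; limma, adjusted p = 0.00247), and in KO at 0 h by -1.88 ± 0.27 (adjusted p = 0.00925). All 10 T cell markers were well above background on all arrays. The probe for Foxp3, which defines Treg, was so on all 6 KO arrays and on 0 of the 6 WT arrays. Of 10 Treg markers, Foxp3 included, 9 passed this limit on each WT array at 0 h. At 3 h, 8 did on each WT array, where Gpr83 failed too, and KO arrays had 8 to 10. Averaged over these 10 markers, the signal relative to WT at 0 h lay between -0.09 and 0.09 (log2) on the WT arrays. The mean of 4 plasma cell markers, relative to WT at 0 h, was 7.66 (log2) on the 21-week KO array at 3 h and 7.17 on that at 0 h, against -0.21 to 2.61 on the other KO arrays and -0.47 to 0.50 on WT arrays, and T cell markers were at -2.82 and -1.85 there. The mean of 10 macrophage markers was -0.61 to 0.57 in KO at 3 h, 2.09 to 2.56 in KO at 0 h, -2.40 to -1.99 in WT at 3 h and -0.37 to 0.47 in WT at 0 h. In such bulk samples, fewer cells of a type and less RNA per cell cannot be told apart. The part of these markers in the results below was not tested, but each main count is given also without the 21-week arrays.

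Activation moved many members, most of them upward. In KO, 14 member probes rose and 5 fell of 88 (21.6%, against 16.3% of all tested probes, 7.43% upward and 8.87% downward), and in WT 31 rose and 9 fell (45.5%, against 29.3% of all tested probes, 13.7% upward and 15.6% downward; limma, adjusted p under 0.05 over all tested probes). By these calls, 18 probes changed in both genotypes in the same direction, 22 passed in WT and not in KO, and 1, for Dnajb3, passed in KO and not in WT. More of all tested probes passed in WT (29.3%) than in KO (16.3%) as well, and the same split was not counted over them. This split is therefore not read as a difference between the genotypes, which is tested below as an interaction. The median log2 difference over the member probes was 0.36 in KO, where that of all tested probes was -0.02, and 0.45 in WT, where it was -0.10. The groups at 3 h and 0 h did not overlap for 35 member probes in KO (24.3% of all tested probes did not) and for 72 in WT (67.7% of all tested probes). Without the 21-week arrays, 41 probes rose and 15 fell in KO (44.3% of all tested probes changed) and 48 rose and 18 fell in WT (54.6% of all), and with KO arrays alone in the fit, the 21-week ones included, 1 of 88 probes, for Hspa4l, passed in KO (0.56% of all). With a term for the 21-week arrays in the model of all arrays, added after the data were seen, 54 probes passed in KO (37.3% of all tested) and 65 in WT (49.1%). The KO count of 19 became 42 without the 21-week array at 3 h, 29 without that at 0 h, 11 without replicate 2 at 0 h, 12 without replicate 1 at 3 h and 11 without replicate 2 at 3 h, where 35.8%, 19.2%, 8.87%, 9.37% and 8.98% of all tested probes passed. The WT count of 40 became 22 and 26 without WT replicates 1 and 3 at 0 h, and 24 and 23 without WT replicates 2 and 3 at 3 h, where 19.6%, 19.3%, 19.4% and 19% of all passed. With no shift between arrays the KO split of 14 higher and 5 lower became 7 and 7.

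**Figure D1:**
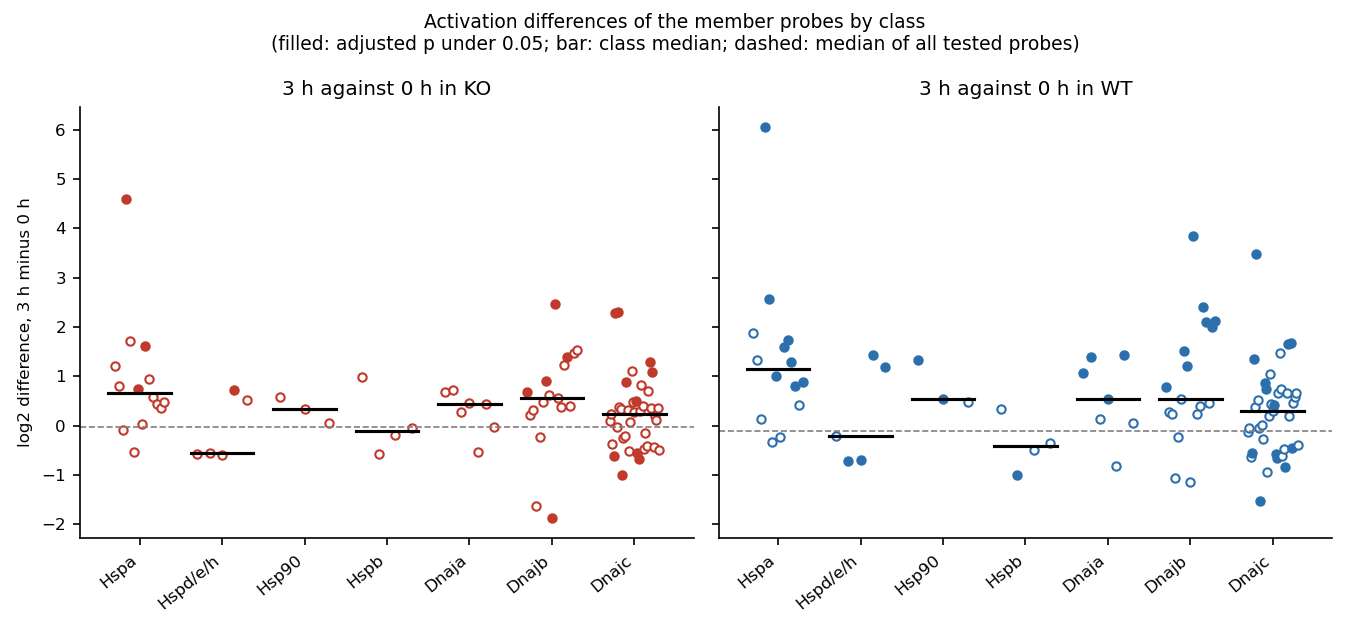
Log2 difference between 3 h and 0 h for each member probe (points) by class, in KO (left) and WT (right); filled points passed the test, black bars are class medians and the dashed line is the median of all tested probes. The Hspa class has the highest median in both genotypes, 0.66 in KO and 1.15 in WT, and 3 of the 5 probes of the Hspd/e/h class lie below 0 in each.

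The Hspa class had the highest median. Of its 14 probes, 3 rose and 0 fell in KO (21.4%, against 16.3% of all tested probes) and 8 rose and 0 fell in WT (57.1%, against 29.3%). The class medians were 0.66 and 1.15. Without the 21-week arrays 11 rose and 0 fell in each genotype, where 44.3% of all tested probes changed in KO and 54.6% in WT. Hspa1a, an inducible cytosolic Hsp70, had signals (log2, relative to the 75th percentile of its array) of -0.58, -0.69 and -0.63 in KO at 3 h, against -6.11, -3.41 and -6.21 in KO at 0 h. In WT it was at -0.73, -1.15 and -1.28 at 3 h, against -7.72, -5.90 and -7.74 at 0 h, where its probe (chr17:35107117-35107176, mm9, minus strand) was well above background on 1 of 3 arrays. All activated arrays lay above all non-activated ones. The rise was 4.61 ± 0.71 in KO (adjusted p = 0.00316) and 6.06 ± 0.71 in WT (adjusted p = 0.000452; SE, 3 arrays per group), the largest fitted value among members in each genotype, with the WT arm at 0 h resting on 1 array well above background. Its neighbour Hspa1b is nearly identical in sequence and has no probe of its own name here, so the signal may hold both.

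Hspa8, the constitutive cytosolic Hsp70, was read by 3 probes. The brightest gave 5.07, 5.04 and 4.83 in KO at 3 h, against 4.43, 4.53 and 4.87 in KO at 0 h. In WT it gave 4.997, 5.007 and 4.955 at 3 h, against 4.62, 4.61 and 4.47 at 0 h. Its groups overlapped in KO, because the 21-week array at 0 h was high, and did not in WT, and its difference of 0.37 ± 0.16 in KO and 0.42 ± 0.16 in WT did not pass (adjusted p = 0.137 and 0.0696). The other probes rose in WT by 1.29 ± 0.33 and 0.81 ± 0.20 (adjusted p = 0.0155 and 0.0124) but did not pass in KO, at 0.57 and 0.44. Hspa5, the ER Hsp70 also called BiP, rose in WT by 1.75 ± 0.44 (adjusted p = 0.0152), a call that was lost without WT replicate 1 at 0 h, whose value of 1.503 stood below 2.75 and 2.72 in the other WT arrays at 0 h. In KO, Hspa5 had 3.90, 4.32 and 4.84 at 3 h, against 2.89, 2.98 and 4.33 at 0 h, and its difference of 0.95 ± 0.44 did not pass. Hspa9, the mitochondrial Hsp70, rose in WT (0.88 ± 0.17, adjusted p = 0.00402) and had 0.48 ± 0.17 in KO (adjusted p = 0.0776).

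Hspa2, best known as the Hsp70 of the testis, rose in WT by 2.56 ± 0.55 (adjusted p = 0.00705) and had 1.73 ± 0.55 in KO (adjusted p = 0.0567). Its values in KO at 0 h were -4.87 and -4.75 on the 10-week arrays and -2.34 on the 21-week array, and without the 21-week arrays the rise was 2.37 ± 0.13 in KO and 2.56 ± 0.10 in WT. Hspa13, a microsomal Hsp70 also called Stch, did not pass in either genotype, at 0.80 ± 0.51 in KO and 1.32 ± 0.51 in WT, but did without the 21-week arrays, at 1.14 ± 0.28 in KO (adjusted p = 0.0126) and 1.32 ± 0.23 in WT (adjusted p = 0.00172). Hspa14, a ribosome-linked Hsp70, was at -0.09 ± 0.16 in KO and 0.14 ± 0.16 in WT.

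**Figure D2:**
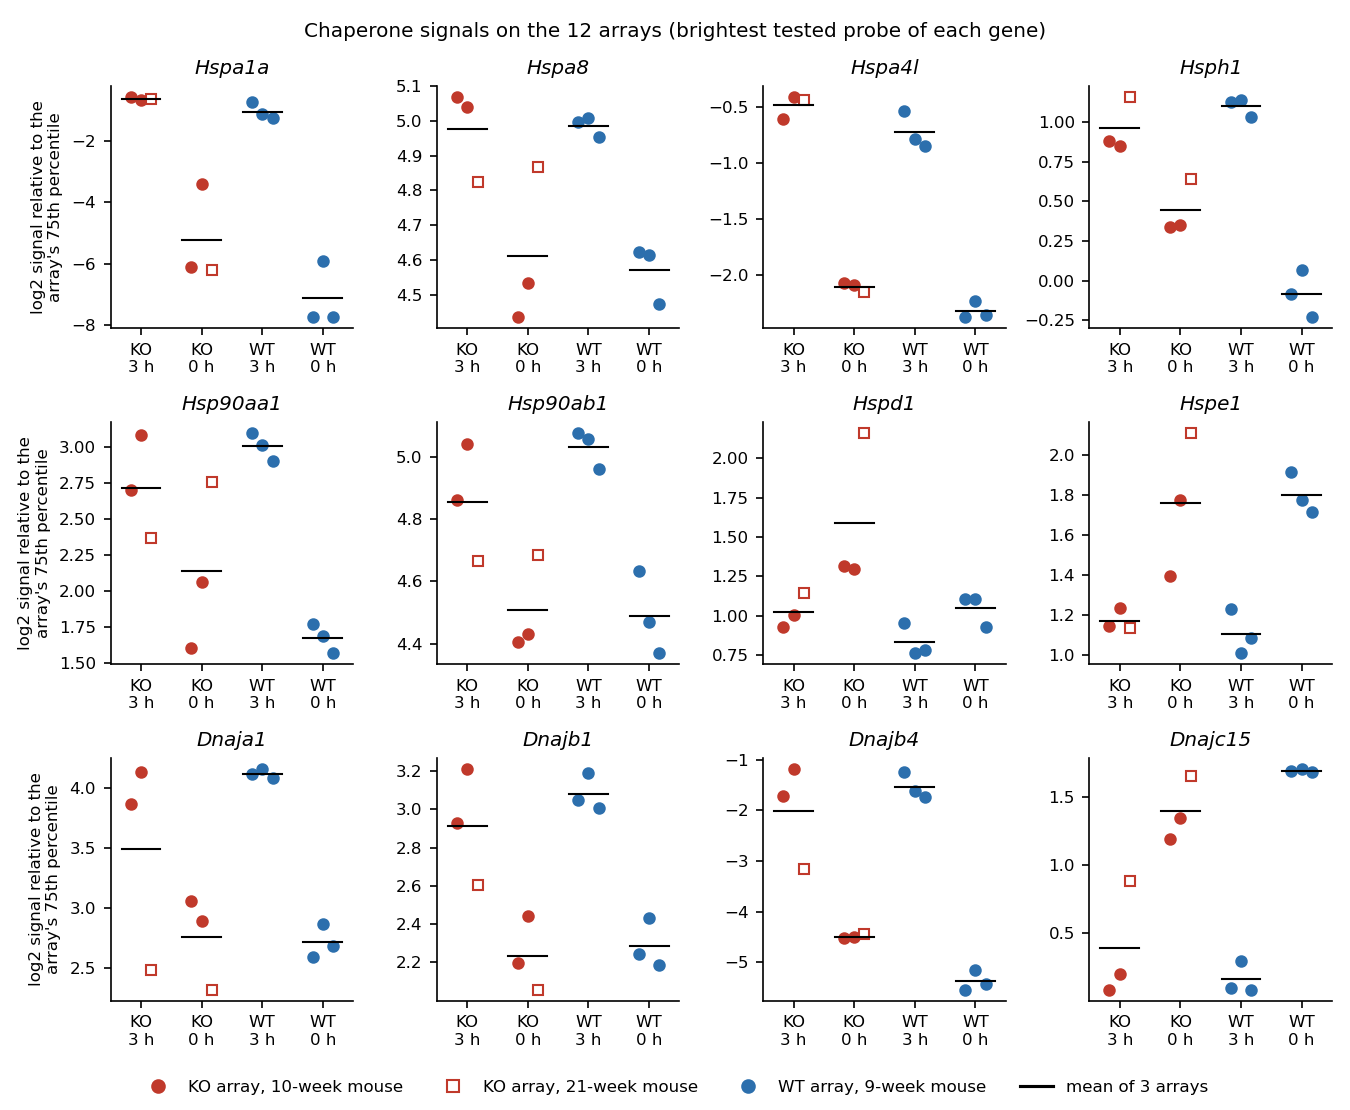
Log2 signal relative to the 75th percentile of each array for 12 members on the 12 arrays, with KO (red, 21-week arrays as open squares) left of WT (blue) and 3 h left of 0 h; lines are means of 3 arrays. Hspa4l and Hspa1a separate the activated from the non-activated arrays in both genotypes, and Hspe1 and Dnajc15 run the other way.

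All 3 Hsp110 exchange factors rose in WT by their brightest probes, and Hspa4l and Hspa4 did in KO. Hspa4l had -0.60, -0.41 and -0.43 in KO at 3 h, against -2.07, -2.09 and -2.15 in KO at 0 h, and in WT -0.53, -0.78 and -0.84 at 3 h, against -2.37, -2.23 and -2.35 at 0 h. The 21-week arrays fell among the others here. The rise was 1.62 ± 0.14 in KO (adjusted p = 0.000254) and 1.60 ± 0.14 in WT (adjusted p = 0.000147), and it passed in all 24 alternatives that were run in each genotype. The 95% interval of the difference between these rises, KO minus WT, ran from -0.42 to 0.47. Hsph1 had 0.88, 0.85 and 1.16 in KO at 3 h, against 0.34, 0.35 and 0.64 in KO at 0 h, and in WT 1.13, 1.14 and 1.03 at 3 h, against -0.09, 0.07 and -0.23 at 0 h. It rose in WT by 1.18 ± 0.16 (adjusted p = 0.000774) and had 0.52 ± 0.16 in KO (adjusted p = 0.0504, and 0.00568 with a term for the 21-week arrays), and its other probe rose in KO (0.72 ± 0.15, adjusted p = 0.0119) and in WT (1.44 ± 0.15, adjusted p = 0.00029). The brightest probe of Hspa4 rose by 0.75 ± 0.19 in KO (adjusted p = 0.0269, lost in 9 of 24 alternatives) and 1.01 ± 0.19 in WT (adjusted p = 0.00402), whereas its other probes, nearer the 3′ end, were at -0.52 and 0.04 in KO and at -0.33 and -0.23 in WT without passing. Hspbp1, which releases nucleotide from Hsp70, was at -0.05 ± 0.14 in KO and 0.03 ± 0.14 in WT.

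The mitochondrial chaperonin did not follow. Hspe1, the Hsp10 lid of the chaperonin, had 1.14, 1.23 and 1.13 in KO at 3 h, against 1.39, 1.77 and 2.11 in KO at 0 h, and in WT 1.23, 1.01 and 1.08 at 3 h, against 1.92, 1.77 and 1.71 at 0 h. It fell in WT (-0.70 ± 0.19, adjusted p = 0.0191) and had -0.59 ± 0.19 in KO (adjusted p = 0.0569, and 0.0177 with a term for the 21-week arrays), and its second probe gave -0.71 ± 0.20 in WT (adjusted p = 0.023) and -0.55 ± 0.20 in KO. The groups did not overlap in either genotype. Hspd1, the Hsp60 ring subunit, did not pass in KO (-0.56 ± 0.22, adjusted p = 0.113) or in WT (-0.22 ± 0.22, adjusted p = 0.506).

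Both cytosolic Hsp90 genes rose in WT. Hsp90aa1, the stress-inducible form, had 2.70, 3.08 and 2.37 in KO at 3 h, against 1.60, 2.06 and 2.76 in KO at 0 h, and in WT 3.09, 3.01 and 2.90 at 3 h, against 1.77, 1.69 and 1.57 at 0 h. The KO groups overlapped through the 21-week arrays and the WT groups did not. Its difference was 0.58 ± 0.28 in KO (adjusted p = 0.184) and 1.33 ± 0.28 in WT (adjusted p = 0.00656), and without the 21-week arrays it was 1.06 ± 0.19 in KO (adjusted p = 0.00273). Hsp90ab1, the constitutive form, had 0.35 ± 0.16 in KO (adjusted p = 0.158) and rose in WT by 0.54 ± 0.16 (adjusted p = 0.0271). Hsp90b1, the ER form also called Grp94, was at 0.06 ± 0.76 in KO and 0.48 ± 0.76 in WT, with a wide error from the 21-week arrays described below.

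Of the 4 small Hspb genes, 0 rose and 0 fell in KO (16.3% of all tested probes changed) and 0 rose and 1 fell in WT (25%, against 29.3%). Without the 21-week arrays 1 rose and 1 fell in KO and 0 rose and 2 fell in WT, where 44.3% and 54.6% of all tested probes changed. Hspb11 fell in WT (-0.99 ± 0.21, adjusted p = 0.00741) and had -0.56 ± 0.21 in KO (adjusted p = 0.0987); its product is also known as Ift25, a subunit of the intraflagellar transport complex. Hspb1, the small heat shock protein Hsp25, was at 0.99 ± 1.04 in KO and 0.34 ± 1.04 in WT. Hspb6 was at -0.18 ± 0.43 in KO and -0.49 ± 0.43 in WT, and Hspb9 at -0.05 ± 0.40 and -0.35 ± 0.40, without passing.

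**Figure D3:**
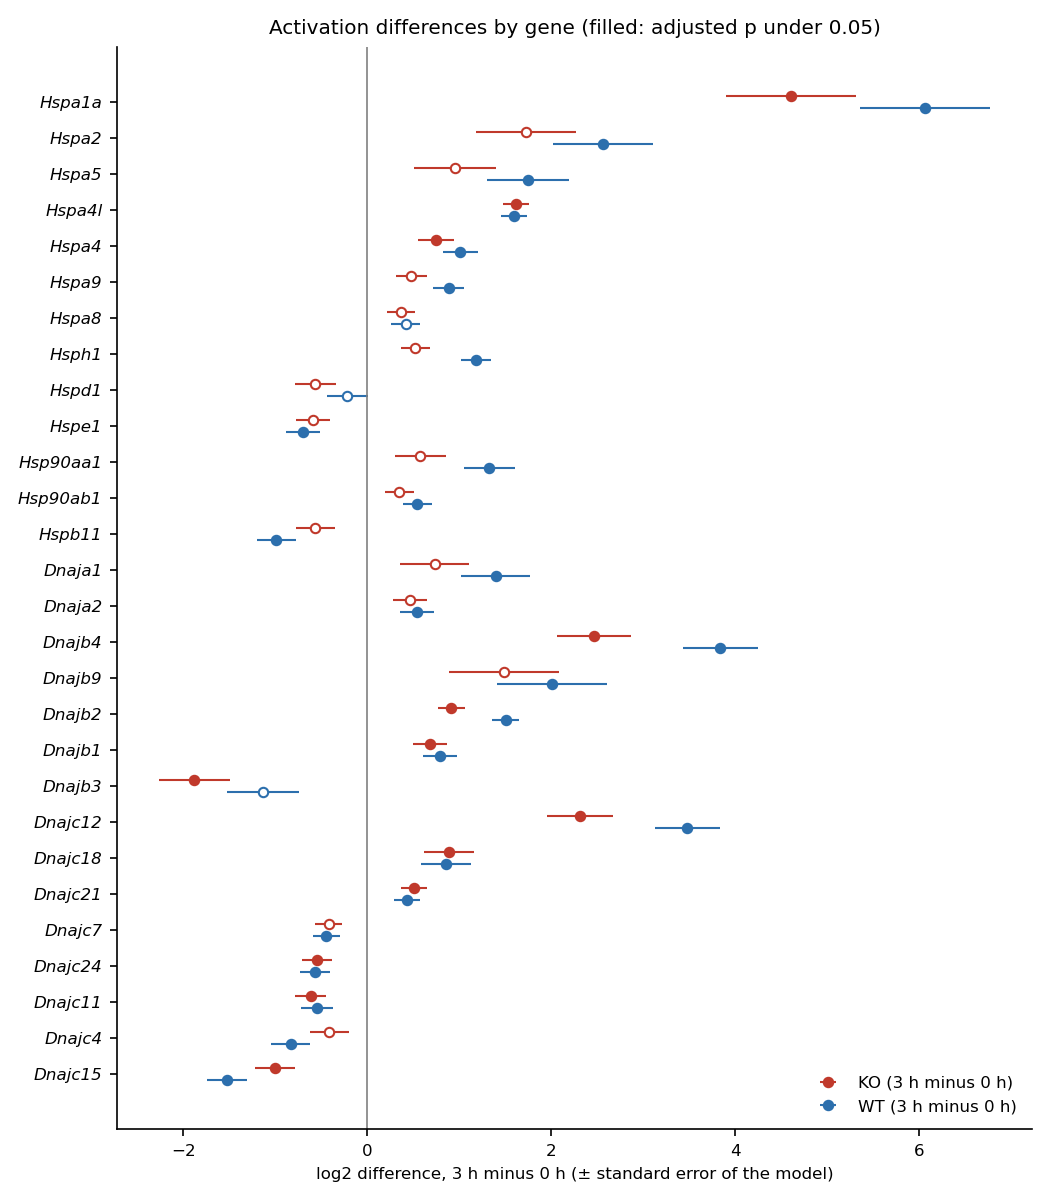
Log2 difference between 3 h and 0 h, with the standard error of the model, for 28 members read from their brightest tested probe, in KO (red, upper) and WT (blue, lower); filled points passed the test. Hspa1a, Dnajb4 and Dnajc12 lie furthest to the right, and Dnajc15 and Dnajb3 furthest to the left.

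Among the J-domain genes, the Dnaja class, closest in build to bacterial DnaJ, had 0 of 7 probes called in KO (16.3% of all tested probes were) and 4 rises and 0 falls in WT (57.1%, against 29.3%). Without the 21-week arrays 4 rose and 1 fell in each genotype, where 44.3% of all tested probes changed in KO and 54.6% in WT. Dnaja1, a cytosolic partner of Hspa8, had 3.86, 4.13 and 2.49 in KO at 3 h, against 3.06, 2.90 and 2.32 in KO at 0 h, and in WT 4.11, 4.15 and 4.08 at 3 h, against 2.60, 2.87 and 2.69 at 0 h. The 21-week arrays were the lowest of their KO groups. Its difference was 0.73 ± 0.37 in KO (adjusted p = 0.205) and 1.40 ± 0.37 in WT (adjusted p = 0.0189), and 1.02 ± 0.14 in KO without the 21-week arrays (adjusted p = 0.000824). Dnaja2 rose in WT by 0.54 ± 0.18 (adjusted p = 0.049) and had 0.46 ± 0.18 in KO, where it did not pass (adjusted p = 0.111, and 0.0248 with a term for the 21-week arrays). That WT call was lost in 15 of 24 alternatives. Dnaja3, the mitochondrial J protein, was at -0.53 ± 0.32 in KO and -0.83 ± 0.32 in WT, and did not pass. With a term for the 21-week arrays it fell in both (adjusted p = 0.0109 in KO and 0.000757 in WT). The dimmer probe of Dnaja4 rose in WT by 1.43 ± 0.36 (adjusted p = 0.0146), while its brightest probe was at 0.05 ± 0.40.

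Of the 17 Dnajb probes, 4 rose and 1 fell in KO (29.4%, against 16.3% of all tested probes) and 8 rose and 0 fell in WT (47.1%, against 29.3%). Without the 21-week arrays 9 rose and 2 fell in KO and 11 rose and 2 fell in WT, where 44.3% and 54.6% of all tested probes changed. Dnajb4, a heat-inducible cytosolic J protein, had -1.72, -1.19 and -3.16 in KO at 3 h, against -4.52, -4.50 and -4.45 in KO at 0 h (chr3:151849464-151849523, mm9, minus strand). In WT it had -1.24, -1.62 and -1.74 at 3 h, against -5.54, -5.16 and -5.43 at 0 h. The groups were apart in both genotypes, and the 21-week array at 3 h was the lowest of the activated arrays. Its rise was 2.47 ± 0.41 in KO (5.53-fold, adjusted p = 0.0042) and 3.84 ± 0.41 in WT (14.3-fold, adjusted p = 0.000295). Dnajb1, the classical Hsp40 partner of Hspa1a, rose by 0.68 ± 0.19 in KO (adjusted p = 0.0335, lost in 15 of 24 alternatives) and by 0.79 ± 0.19 in WT (adjusted p = 0.0107). Dnajb2, which hands ubiquitinated clients to the proteasome, rose by 0.91 ± 0.15 in KO (adjusted p = 0.00387) and 1.51 ± 0.15 in WT (adjusted p = 0.000231).

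Dnajb9, an ER J protein also called ERdj4, rose in WT by 2.01 ± 0.60 (adjusted p = 0.0298) and had 1.48 ± 0.60 in KO (adjusted p = 0.118); without the 21-week arrays the difference was 1.89 ± 0.15 in KO and 2.01 ± 0.12 in WT. Dnajb11, its ER relative ERdj3, did not pass, at 0.22 ± 0.42 in KO and 0.29 ± 0.42 in WT. With a term for the 21-week arrays it passed in WT (adjusted p = 0.0292) and not in KO (adjusted p = 0.086). Dnajb3, known from the testis, had -6.51, -5.15 and -6.48 in KO at 3 h, against -4.50, -4.13 and -3.87 in KO at 0 h, and in WT -6.24, -6.24 and -7.19 at 3 h, against -5.21, -5.63 and -5.44 at 0 h. It fell in KO (-1.88 ± 0.39, adjusted p = 0.011) and had -1.13 ± 0.39 in WT (adjusted p = 0.0526, and 0.0401 with a term for the 21-week arrays). Dnajb13, which is known from the axoneme of cilia and sperm, was at -1.63 ± 0.51 in KO (adjusted p = 0.0546) and -1.06 ± 0.51 in WT without passing. With a term for the 21-week arrays it fell in both (adjusted p = 0.000922 in KO and 0.00466 in WT). Dnajb6, which suppresses protein aggregation, gave different answers by probe. The probes at positions 376 and 500 of 1 transcript form had 1.24 ± 0.38 and 1.40 ± 0.34 in KO (adjusted p = 0.0506 and 0.0209) and 2.40 ± 0.38 and 2.10 ± 0.34 in WT (adjusted p = 0.00169 and 0.00187). Those at positions 2544 and 2550 of another form were at 0.40 and 0.38 in KO and 0.47 and 0.39 in WT and did not pass. With a term for the 21-week arrays they passed in both genotypes (adjusted p between 0.00474 and 0.0196). Position and transcript form cannot be told apart here.

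The Dnajc class, which shares little beyond the J domain, split both ways. It had 6 rises and 4 falls among 37 probes in KO (27%, against 16.3% of all tested probes) and 7 rises and 6 falls in WT (35.1%, against 29.3%). Without the 21-week arrays it had 12 rises and 10 falls in KO and 17 rises and 11 falls in WT, where 44.3% and 54.6% of all tested probes changed. Dnajc12, a cytosolic J protein that binds aromatic amino acid hydroxylases, had -0.31, -0.15 and -1.64 in KO at 3 h, against -3.35, -3.10 and -2.59 in KO at 0 h. In WT it had 0.26, -0.03 and 0.09 at 3 h, against -3.37, -3.52 and -3.24 at 0 h. No activated array overlapped a non-activated one. It rose by 2.31 ± 0.36 in KO (adjusted p = 0.00315) and 3.48 ± 0.36 in WT (adjusted p = 0.00026). Dnajc15, a J protein of the mitochondrial inner membrane also called MCJ, had the largest fall of the class. It had 0.09, 0.20 and 0.88 in KO at 3 h, against 1.19, 1.34 and 1.65 in KO at 0 h, and in WT 0.10, 0.30 and 0.09 at 3 h, against 1.69, 1.70 and 1.68 at 0 h. It fell to 0.499-fold of the 0 h level in KO (adjusted p = 0.0132) and to 0.347-fold in WT (-1.53 ± 0.22, adjusted p = 0.00103). The KO call was lost without replicate 2 at 3 h.

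Dnajc18 rose by 0.89 ± 0.27 in KO (adjusted p = 0.0491) and 0.86 ± 0.27 in WT (adjusted p = 0.0376). Dnajc21, which takes part in ribosome assembly, rose by 0.51 ± 0.14 in KO (adjusted p = 0.0353, lost in 12 of 24 alternatives) and 0.43 ± 0.14 in WT (adjusted p = 0.042). Dnajc24, needed to make diphthamide on elongation factor 2, fell in KO (-0.55 ± 0.16, adjusted p = 0.0453) and in WT (-0.57 ± 0.16, adjusted p = 0.0239), and its second probe fell too. Dnajc4 and Dnajc7, the second a cochaperone of both Hsp70 and Hsp90, fell in WT, with -0.83 ± 0.21 and -0.45 ± 0.15 (adjusted p = 0.0151 and 0.0435), and had -0.41 ± 0.21 and -0.42 ± 0.15 in KO. The brightest probe of Dnajc11 fell in KO (-0.62 ± 0.17, adjusted p = 0.0354, lost in 13 of 24 alternatives) and in WT (-0.55 ± 0.17, adjusted p = 0.036), while a dimmer one rose by 2.29 ± 0.41 in KO (adjusted p = 0.00591) and 1.35 ± 0.41 in WT (adjusted p = 0.0313). Dnajc2, Dnajc3 and Dnajc10, the first a ribosome-bound J protein and the others of the ER, did not pass, at 0.07, -0.47 and -0.37 in KO and at 0.19, -0.62 and -0.64 in WT. Without the 21-week arrays Dnajc3 (-0.71 ± 0.12 in KO and -0.62 ± 0.10 in WT) and Dnajc10 (-0.60 ± 0.11 and -0.64 ± 0.09) passed in both genotypes (adjusted p between 0.000655 and 0.00361).

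Probes of the same gene often differed. Of 21 genes with at least 2 tested probes, the probes differed in sign for 6 in the KO comparison and 4 in the WT comparison, and in call for 7 and 9. Dnajc11 had probes called in opposite directions in both, the rising one near background at 0 h and past the filter only through the groups at 3 h. Dnajc5, the cysteine string protein of secretory vesicles, rose by 1.09 ± 0.18 and 1.29 ± 0.21 in KO and by 1.69 ± 0.18 and 1.66 ± 0.21 in WT at transcript positions 736 and 1055 (adjusted p between 0.000284 and 0.00383), while its brightest probe, at position 3704, was at 0.36 ± 0.19 in KO and 0.21 ± 0.19 in WT. Among 11 members with 2 probes of the same accession at least 300 bases apart, both well above background on all 12 arrays, the probe nearer the 5′ end had the higher activation difference in 10 in KO and 10 in WT. Over all 1735 such genes the share was 74.2% in KO and 81.6% in WT. This comparison was chosen after the values were seen and is given as a description.

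**Figure D4:**
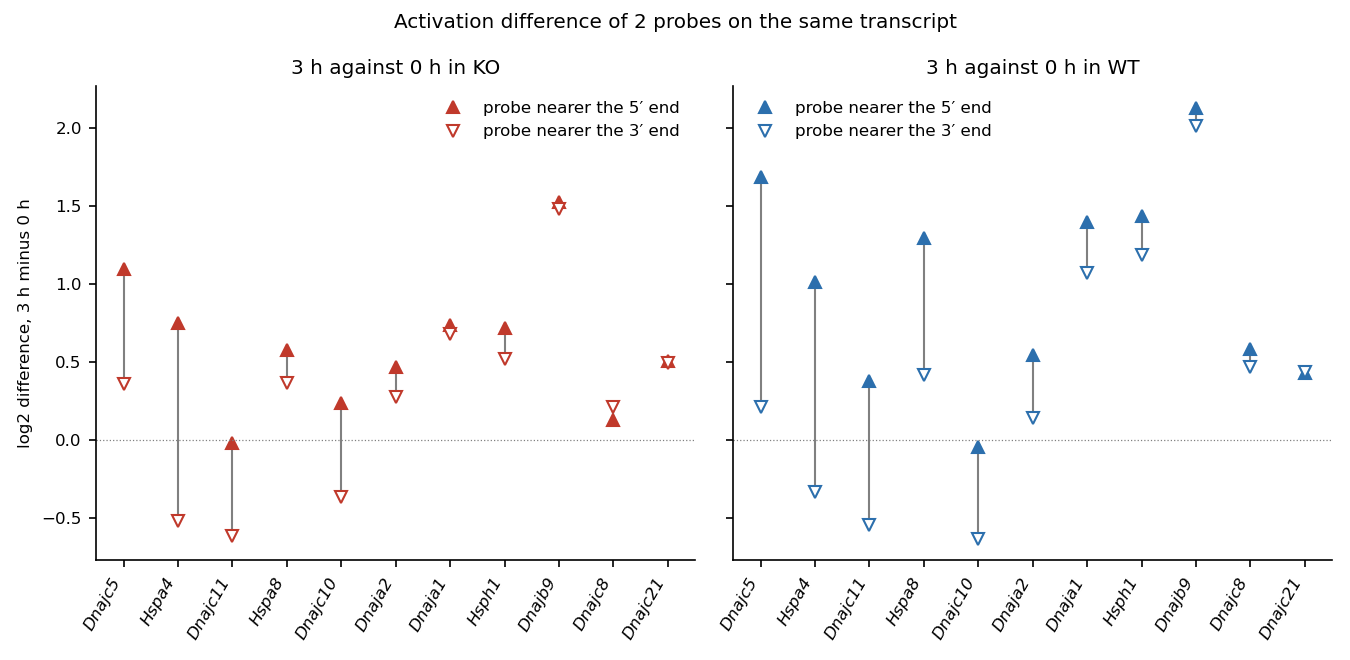
Log2 difference between 3 h and 0 h for the probe nearest the 5′ end (filled) and nearest the 3′ end (open) of the same transcript for 11 members, in KO (left) and WT (right). Dnajc5 and Hspa4 have the widest gaps in WT, 1.48 and 1.35.

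Promoters are shown for 5 members, 4 because their windows hold a match to the heat shock element read by HSF1 and belong to genes with clear rises (Hspa1a, Hsph1, Dnajb4) or a fall (Hspe1) in WT, and Hspa5 for its ER stress element. Each is the 250 bases before a start site, 5′ to 3′ on the gene's strand, from RefSeq on GRCm38.p6, and capitals mark the match. Hsph1, like Dnajb4, has 2 start sites, of which 1 is shown.
Hspa1a (chr17:34972157-34972406, minus strand): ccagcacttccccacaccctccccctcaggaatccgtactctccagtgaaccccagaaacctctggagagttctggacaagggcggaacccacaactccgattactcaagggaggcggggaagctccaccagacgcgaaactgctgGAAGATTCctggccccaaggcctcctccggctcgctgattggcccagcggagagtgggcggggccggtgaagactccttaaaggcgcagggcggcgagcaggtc
Hsph1 (chr5:149636337-149636586, minus strand): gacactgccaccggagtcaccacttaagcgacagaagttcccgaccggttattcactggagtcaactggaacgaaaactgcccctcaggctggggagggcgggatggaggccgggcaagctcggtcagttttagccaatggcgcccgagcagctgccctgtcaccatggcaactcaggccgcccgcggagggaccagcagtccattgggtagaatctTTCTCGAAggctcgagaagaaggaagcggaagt
Dnajb4 (chr3:152193846-152194095, minus strand, 1 of 2 start sites): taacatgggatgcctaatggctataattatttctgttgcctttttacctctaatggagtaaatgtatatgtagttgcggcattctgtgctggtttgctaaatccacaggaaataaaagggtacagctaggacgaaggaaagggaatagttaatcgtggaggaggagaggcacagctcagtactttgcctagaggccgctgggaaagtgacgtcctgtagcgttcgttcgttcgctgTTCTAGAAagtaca
Hspe1 (chr1:55087898-55088147, plus strand): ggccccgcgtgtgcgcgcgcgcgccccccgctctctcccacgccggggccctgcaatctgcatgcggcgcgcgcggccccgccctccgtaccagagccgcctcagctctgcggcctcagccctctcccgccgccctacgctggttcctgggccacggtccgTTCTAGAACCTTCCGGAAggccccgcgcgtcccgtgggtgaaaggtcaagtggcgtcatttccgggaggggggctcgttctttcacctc
Hspa5 (chr2:34771840-34772089, plus strand): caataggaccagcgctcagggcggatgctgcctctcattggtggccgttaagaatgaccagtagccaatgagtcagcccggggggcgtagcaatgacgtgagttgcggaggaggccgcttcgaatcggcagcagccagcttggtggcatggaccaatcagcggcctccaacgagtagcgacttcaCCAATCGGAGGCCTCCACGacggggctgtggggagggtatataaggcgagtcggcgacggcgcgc

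The heat shock element was searched as GAANNTTC or TTCNNGAA, each its own reverse complement, in windows of 250 bases before to 50 after each start. RefSeq windows matched 47 of the 58 tested genes. Either form was found in 12 of these 47 (25.5%), against 17% of all 27025 genes with a window. They were Dnaja1, Dnaja4, Dnajb4, Dnajb6, Dnajc10, Dnajc27, Hspa1a, Hspb1, Hspb6, Hspd1, Hspe1 and Hsph1. Of the 47, 13 rose in WT by their brightest probe and 4 of these held a match, 6 fell and 1 held one, and 28 were not called and 7 held one. The longer form of 3 alternating units of GAA and TTC, each 2 bases from the next, contains the shorter ones. It was in Dnajb6, Hspd1, Hspe1 and Hsph1 (8.51% of the 47, 0.662% of all genes). In Hsph1 it lay after the start, outside the bases shown. Hspd1 and Hspe1 are known to lie head to head around a shared promoter, and neither rose. Whether their matches are the same site was not checked, so the shares above may count 1 site for both genes. The ER stress element, CCAAT and CCACG with 9 bases between them, on either strand, was in Dnajc3, Hsp90b1 and Hspa5 (6.38%, against 0.137% of all genes), and the cyclic AMP element TGACGTCA in Dnajc27 (2.13%, against 2.03%). The windows of Hspa1a and Hspa1b share a run of 201 identical bases. A match is a description of letters and does not show binding.

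Between the genotypes no member passed. At 3 h, 0 of 88 member probes differed between KO and WT (1.26% of all tested probes did, 1.1% higher and 0.164% lower in KO; limma), and 4 had an unadjusted p under 0.05 (10.1% of all tested probes). At 0 h, 0 of 88 differed (1.82% of all tested probes did, 1.63% higher and 0.187% lower in KO; limma), and 10 had an unadjusted p under 0.05 (14.1% of all). The groups did not overlap for 12 member probes at 3 h (18.5% of all tested probes) and for 26 at 0 h (29.2%). The median difference over members was -0.04 at 3 h and 0.08 at 0 h, where that of all tested probes was 0.02 and -0.03. For Hspa8 the 95% interval of the difference, KO minus WT, ran from -0.35 to 0.34 at 3 h and from -0.30 to 0.39 at 0 h, and for Hspa1a from -1.16 to 2.00 and from 0.30 to 3.46.

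Several members had higher values in KO at 0 h without passing. Over the 88 member probes, 55 had a positive and 33 a negative difference at 0 h, against 12374 and 13885 of all 26259 tested probes. The largest difference of the Dnajb class was that of Dnajb3, 1.26 ± 0.39 (limma, adjusted p = 0.168), with no overlap between the groups. Dnajb2 had -1.11, -1.02 and -1.28 in KO at 0 h, against -1.88, -1.58 and -1.75 in WT at 0 h, a difference of 0.60 ± 0.15 (adjusted p = 0.0833) with no overlap. Hsph1 was at 0.53 ± 0.16 (adjusted p = 0.158) and Hspa1a at 1.88 ± 0.71 (adjusted p = 0.265), or 0.96 ± 0.49 without KO replicate 2 at 0 h, whose value of -3.41 stood above the others. Without the 21-week arrays 3 of 88 probes passed at 0 h, where 5.09% of all tested probes did, and 0 at 3 h. They were both Dnajb2 probes (0.67 ± 0.12, adjusted p = 0.022, and 0.95 ± 0.15, adjusted p = 0.0151) and 1 Hsph1 probe (0.61 ± 0.14, adjusted p = 0.0495), and with array quality weights 8 of 88 passed at 0 h, where 9.92% of all tested probes did. At 3 h, Dnajb2 was at 0.00 ± 0.15 and Hsph1 at -0.14 ± 0.16.

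Whether activation acted differently in KO than in WT was tested as an interaction, KO minus WT. It passed for 0 of 88 member probes and for 0 of all tested probes (limma), with 6 members (and 3.66% of all) at an unadjusted p under 0.05. The most negative differences were in Hspa1a (-1.46, 95% interval -3.69 to 0.78), Dnajb4 (-1.37, interval -2.65 to -0.09) and Dnajc12 (-1.17, interval -2.29 to -0.05), each with an adjusted p of 1. Hspa1a was at -0.54 without KO replicate 2 at 0 h, and without the 21-week arrays Dnajb4 was at -0.78 (adjusted p = 0.495) and Dnajc12 at -0.49 (adjusted p = 0.503). In the fit of all arrays, the most positive difference was 0.93 in the dimmer Dnajc11 probe. That probe was near background at 0 h and passed the filter only through the groups at 3 h. Of the 14 Hspa probes 12 had a negative difference, with a median of -0.39, and the median was -0.14 without the 21-week arrays. Over all 26259 tested probes 11641 had a negative difference, with a median of 0.05, or 0.01 without the 21-week arrays. The 14 probes stand for 9 genes and were read on the same arrays, so their signs are not independent.

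Some members stood apart on the 2 arrays labelled 21 weeks, which can come from the same mouse. Both of these arrays lay above all 10 others for 19 of 88 member probes (21.6%, against 15.1% of all tested probes) and below all others for 11 (12.5%, against 16.6%). Hsp90b1 was at 4.38 at 3 h and 4.21 at 0 h on them, against 1.04 to 1.93 on the others. Hspa5, both probes of Dnajb9 and of Hspa13, Dnajb11, Dnajc3 and both probes of Dnajc10, which all work in the ER, also lay above, as did both probes of Dnajc25 and the mitochondrial Dnaja3, Dnajc19 (1 of 2 probes) and Dnajc30; the ER members Dnajb12, Dnajb14 and Dnajc1 did not. Hspb1 was at 0.81 at 3 h and -0.58 at 0 h, against -4.05 to -2.74 on the others, and Hspb6 and Hspb9 lay above as well. Dnajc14, an ER membrane J protein, showed the widest gap, with 1.68 at 3 h and 0.53 at 0 h, against -5.004 to -4.70 elsewhere (chr10:128256441-128256500, mm9, plus strand). Its second probe, which did not pass the filter, was at -6.78 and -7.48, against -7.84 to -6.45 elsewhere. Both probes of Dnaja1, the brightest probe of Dnaja4, all 3 of Dnajc8, which takes part in splicing, and both of Dnajc2 lay below. Plasma cell markers were high on the same arrays, as given above. On the same scale, the mean of 5 neutrophil markers was 7.14 at 3 h and 9.07 at 0 h on them. On the other KO arrays it was -0.48 to 2.39. That of 4 platelet markers was 2.71 and 3.92, against -0.12 to 2.30. That of 10 Treg markers was -2.39 and -2.86, against -0.25 to 0.40. Foxp3 ran against this mean. On the scale used for Hsp90b1, Foxp3 was at -3.16 and -2.86, against -6.27 to -4.09 on the other KO arrays. It was at -9.62 to -8.63 on WT arrays, not well above background. Foxp3 therefore raised the Treg mean on every KO array. Each other Treg marker was lower on the 21-week array than on the other KO arrays of the same time.

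**Figure D5:**
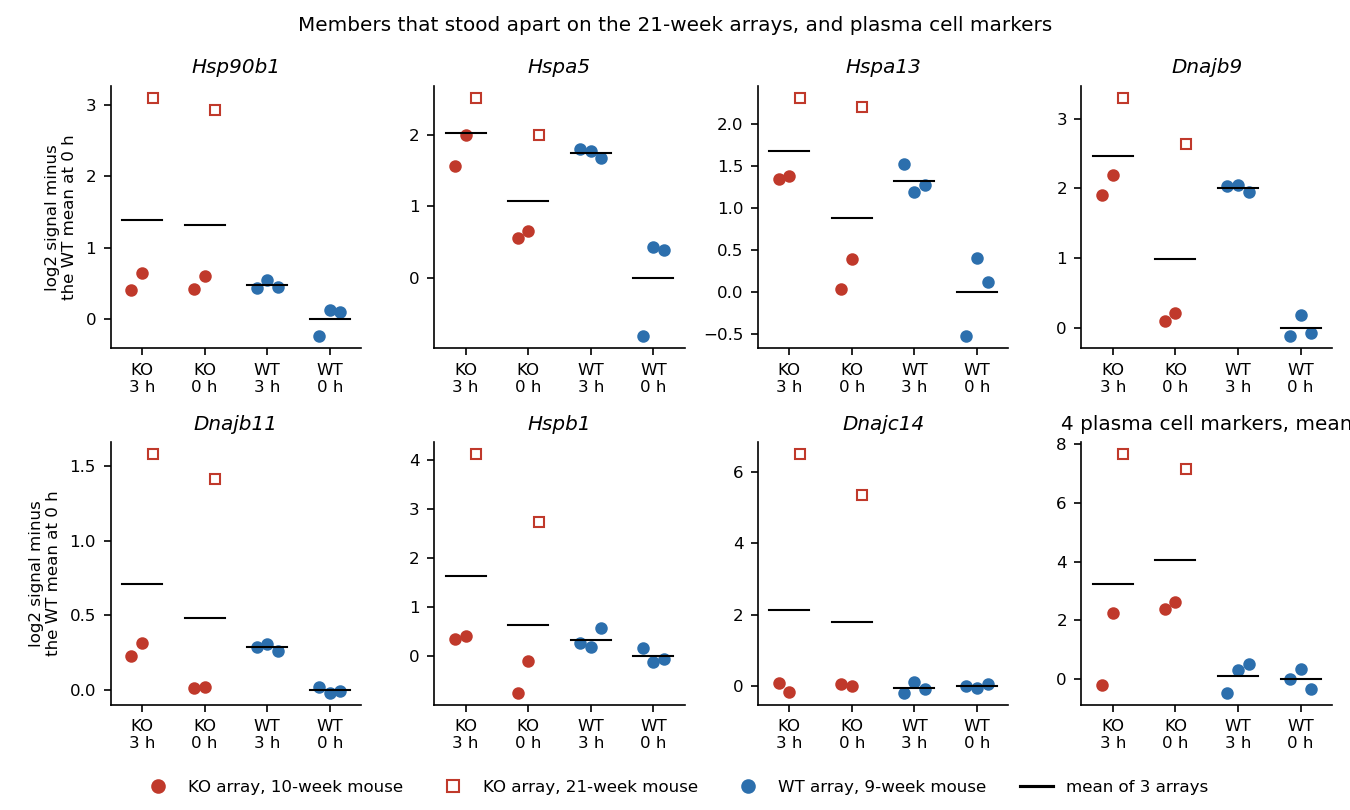
Log2 signal minus the WT mean at 0 h for 7 members and for the mean of 4 plasma cell markers on the 12 arrays, with KO (red, 21-week arrays as open squares) left of WT (blue) and 3 h left of 0 h. The open squares lie above the other points in every panel.

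Partners of these chaperones, from 6 lists, were read from their brightest probes. The exchange factor list also named Hspa12a, which the naming rule covers and which had no tested probe. The lists are not separate from each other. Besides Bag3, the genes Chordc1, Ahsa1, Stip1, Fkbp4, Tcp1, Hyou1, Grpel1 and Trap1 each stand in more than 1 list. Over all 18627 genes read this way, 1321 rose and 1780 fell in KO (16.6%) and 2434 rose and 3052 fell in WT (29.5%). Without the 21-week arrays, 3685 of all genes rose and 4751 fell in KO, and 4458 rose and 5822 fell in WT. Of 17 heat shock factors and HSF1-linked stress genes, 5 rose and 0 fell in KO and 9 rose and 0 fell in WT, with medians of 0.28 and 0.56; without the 21-week arrays 9 rose and 2 fell in KO and 11 rose and 1 fell in WT. They included Sqstm1, a receptor of selective autophagy (2.17 ± 0.27 in KO and 2.13 ± 0.27 in WT) and Bag3, an Hsp70 exchange factor that also stands in the next list (1.31 ± 0.21 and 1.55 ± 0.21). Hsf1 itself was at 0.28 ± 0.23 in KO and 0.29 ± 0.23 in WT and did not pass, and Hsf2 had 0.45 ± 0.25 in KO without passing and rose in WT by 0.91 ± 0.25; the difference between these did not pass (adjusted p = 1). Hmox1, heme oxygenase, was higher in KO than in WT at 3 h (2.32 ± 0.47, adjusted p = 0.0456), a call lost without the 21-week arrays (2.15, adjusted p = 0.102); it is abundant in macrophages, whose markers were also higher in KO at 3 h than in WT at 3 h, and their part in this was not tested.

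The activation counts that follow stand beside 16.6% of all genes called in KO and 29.5% in WT. Of 18 Hsp70 exchange factors and related cochaperones, 2 rose and 2 fell in KO and 4 rose and 1 fell in WT. Bag2 was higher in KO at 0 h (1.97 ± 0.40, adjusted p = 0.0379) and fell in KO on activation (-1.75 ± 0.40, adjusted p = 0.0167). Of 19 Hsp90 cochaperones, 1 rose and 3 fell in KO and 3 rose and 5 fell in WT. Unc45a, a myosin chaperone, rose in both (1.25 ± 0.28 in KO and 1.26 ± 0.28 in WT), and Ppid (-0.94 ± 0.13 and -0.79 ± 0.13) and Fkbp5 (-0.59 ± 0.15 and -1.22 ± 0.15), which are immunophilins, fell in both. Of the 14 genes of the TRiC chaperonin and prefoldin, 0 changed in KO and 3 rose and 1 fell in WT. Of 14 genes of mitochondrial import and proteolysis, 0 rose and 1 fell in KO and 3 rose and 0 fell in WT. Of 20 ER chaperones and unfolded protein response genes, 2 rose and 0 fell in each genotype, Atf4 and Ddit3, both stress-induced transcription factors. The ER list had a median difference between KO and WT of 0.79 at 3 h and 0.86 at 0 h, which was 0.09 and 0.18 without the 21-week arrays, and 0 of its genes passed with them. Of all genes, 1.4% passed at 3 h and 1.96% at 0 h. Without the 21-week arrays, the rises and falls numbered 8 and 3 in KO and 8 and 2 in WT for the exchange factors, 3 and 7 in KO and 4 and 8 in WT for the Hsp90 cochaperones, and 1 and 0 in KO and 5 and 2 in WT for TRiC and prefoldin. They numbered 3 and 2 in KO and 4 and 4 in WT for mitochondrial import, and 6 and 3 in KO and 7 and 3 in WT for the ER list. Over all 18627 genes they numbered 3685 and 4751 in KO and 4458 and 5822 in WT.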

How the data were processed

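Total RNA of sorted splenic Treg was labelled with Cy3 and hybridised to 12 Agilent mouse arrays, 3 per group. The deposited scanner files hold spot intensity on a linear scale, and per the file headers their processed signal came from Feature Extraction 10.7.3.1; the submitters' processing notes give version 11 of that Agilent software. The authors also deposited log2 expression values, with a median of 3.89 on every array; the submitters' processing notes name Partek, with no version or role, and the scaling and centring behind these values are not given in the sources used here. They served as an alternative.

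Control and outlier spots were left out, spots of a probe were averaged, and the log2 signal was shifted so that each array's 75th percentile was 0. That percentile was taken over the 19798 probes detected well above background on every array, since on average 46.4% of probes were detected. The brightness at the 75th percentile over all probes lay between 167 and 332 intensity units. No probe was saturated. Per the labels' protocols, 1 sample at 0 h was amplified from less RNA than the others, and its genotype is not stated. Each probe was tested with limma 3.58.1 in R 4.3.3 (1 model of 4 group means, 8 residual degrees of freedom, two-sided), with Benjamini-Hochberg adjustment over all tested probes and a threshold of 0.05. Values are log2 differences ± the model's standard error; the number of arrays limits their precision. The scripts were tested on simulated data. A gene is read from its brightest tested probe unless stated. Probe coordinates are those of the array design (mm9).

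Genes were named by role, and beyond these up to 4 called genes per class and comparison with the largest moderated statistic, or up to 2 with the largest difference in a class without calls. Dnajb6, Dnajb12, Dnajb14, Dnajc1, Dnajc7, Dnajc8, Dnajc18, Dnajc19, Dnajc30 and Hspb6 were named after their values were seen. Members, lists and the naming rule were chosen with earlier results of these data known. Alternatives covered the scaling, background, filter on dim probes, probe choice, array weights, the arrays in the fit, each array left out in turn and a term for the 21-week arrays (the last chosen after the data were seen).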

Additional observations from a re-analysis of the deposited data

How the results depend on the processing

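No paired analysis was possible because the replicate numbers were given in accession order and no label ties arrays of 2 groups to the same mouse; age sets apart 1 array in each KO group, and a term for it was added after the data were seen. Of 31 named values that passed, 10 passed in all alternatives run for them and none of the 31 changed direction in any; of the 132 that did not pass, none passed in the opposite direction in any. The count of member probes called for 3 h against 0 h in KO was 19; it was 30 with normexp background correction (16.5% of all probes called), 10 with no filter on dim probes (4.29%), 56 with array quality weights (39.6%), 1 with only the groups of the comparison in the fit (0.56%), 56 without the 21-week arrays (44.3%), 54 with a term for them (37.3%) and 11 to 42 when single arrays were left out. The count for 3 h against 0 h in WT was 40; it was 25 with no shift between arrays (14.6%), 25 with no filter on dim probes (10.1%), 69 with array quality weights (64.6%), 67 with only the groups of the comparison (59.5%), 66 without the 21-week arrays (54.6%), 65 with a term for them (49.1%) and 22 to 57 when single arrays were left out. For KO against WT at 3 h, where it was 0, it was 0 to 1 when single arrays were left out, and for KO against WT at 0 h, where it was 0, it was 8 with array quality weights (9.92%), 3 without the 21-week arrays (5.09%), 2 with a term for them (3.37%) and 0 to 3 when single arrays were left out. The difference of activation effects gave 0 member calls in all alternatives run. The cause of these changes was not tested, apart from the number of probes adjusted over (55166 with no filter) and of arrays used. The higher share of all calls for 3 h against 0 h in KO was 45.6%, but 12.6% with no shift between arrays, which moved the median of all probes to -0.32, and 59.9% with normexp; for KO against WT it was 87% at 3 h and 89.7% at 0 h, but 74.3% and 78.8% with quantile normalization, 77.4% at 0 h with the percentile over all probes, and 73.1% and 78.4% in the deposited table. The median of all probes for KO against WT, 0.02 at 3 h and -0.03 at 0 h, was -0.38 at 3 h with no shift, 0.16 at 3 h with normexp, and at 3 h and 0 h -0.17 and -0.21 with the percentile over all probes, -0.15 and -0.15 with quantile normalization and -0.16 and -0.15 in the deposited values. Dim probes near background limit Hspa1a in WT at 0 h and the dimmer Dnajc11 probe at 0 h in both genotypes.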
